A study of Mus musculus with 8 samples.

Results

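The series holds 8 RNA-seq libraries of cultured mouse erythroid cells, and 3 of them, chosen by their labels, are controls. Bloodlinc_shCTL received the control hairpin of an experiment on Bloodlinc, a long noncoding RNA made beside the red cell anion exchanger gene Slc4a1. Empty_vector received the expression vector without Bloodlinc. hnRNPU_shCTL received the control hairpin of an experiment on hnRNP U, a nuclear RNA-binding protein. All 3 came from C57BL/6 fetal livers at stage E14.5 of embryonic development. In every case erythroid progenitors were separated magnetically, transduced, and grown for 24 h with erythropoietin, the hormone that drives red cell production. The labels do not say how many embryos each library pools, how transduced cells were selected or when each library was made. Each control is 1 library and belongs to its own arm of the study, so arm, vector, day of culture and library preparation cannot be told apart. No difference below has a replicate error or a test. The intervals cover counting error only.

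Red cell precursors pass from large dividing progenitors to small erythroblasts filled with haemoglobin. On the way, the receptor Kit and the factors Gata2, Myb and Myc are switched off, while Gata1 and Klf1 drive the genes of globin, heme, the membrane skeleton and iron uptake. The fetal liver is at this age the main site of red cell production. It also holds macrophages, granulocytes and their precursors, megakaryocytes, mast cells and liver cells, any of which can be carried into a preparation.

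The microRNAs miR-451a and miR-144 come from 1 erythroid transcript on chromosome 11 and are shown because reads over their hairpins ordered the controls in different ways. Capitals mark the seed, bases 2 to 8, in the RefSeq mature sequences (GRCm38.p6, plus strand). The 3 seeds differ, so each is a seed group of its own.
miR-451a, chr11:78073186-78073207: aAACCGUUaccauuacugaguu
miR-144-3p, chr11:78073047-78073066: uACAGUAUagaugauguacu
miR-144-5p, chr11:78073010-78073032: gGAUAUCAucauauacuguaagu
Counts over the Mir451a hairpin came to 19.3 CPM (counts scaled to library size) in Bloodlinc_shCTL, 0.515 in Empty_vector and 5.46 in hnRNPU_shCTL. Those over the Mir144 hairpin came to 2.82, 1.83 and 11.2 CPM. Mir451a was thus highest in Bloodlinc_shCTL and Mir144 in hnRNPU_shCTL, and both were lowest in Empty_vector. These counts come from fragments of longer RNA placed over the hairpin, not from a measurement of mature microRNA.

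Promoters of 2 genes at opposite ends of the programme are shown because their transcripts differed widely between the controls. Alas2 encodes the first enzyme of erythroid heme synthesis, and Kit the receptor of early progenitors. Each is the 250 bases before the RefSeq start (GRCm38.p6), searched on both strands. Capitals mark matches to the GATA factor motif, which is AGATAA with T also allowed as its first base and G as its last, and to the Klf family motif CACCC. The motifs do not overlap each other.
Alas2, chrX:150547167-150547416, plus strand: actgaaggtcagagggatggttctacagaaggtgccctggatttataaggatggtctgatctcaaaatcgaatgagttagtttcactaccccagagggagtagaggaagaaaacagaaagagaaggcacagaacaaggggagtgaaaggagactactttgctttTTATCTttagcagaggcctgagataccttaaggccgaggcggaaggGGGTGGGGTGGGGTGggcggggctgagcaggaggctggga
Kit, chr5:75574737-75574986, plus strand: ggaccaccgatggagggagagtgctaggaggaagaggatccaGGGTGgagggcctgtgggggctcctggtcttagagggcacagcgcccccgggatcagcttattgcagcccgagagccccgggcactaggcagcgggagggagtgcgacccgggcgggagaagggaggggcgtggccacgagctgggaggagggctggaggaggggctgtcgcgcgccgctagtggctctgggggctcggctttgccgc
The Alas2 window holds 1 GATA match and 3 CACCC matches, and the Kit window 0 and 1. Over 27025 promoters of the same length, 27.1% hold a GATA match, 51.3% a CACCC match and 11.9% both. These are matches of letters and say nothing of binding.

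Counts in genes came to 23771372 in Bloodlinc_shCTL, 31706823 in Empty_vector and 33820556 in hnRNPU_shCTL, so that 3 counts stand for between 0.0887 and 0.126 CPM of the total. Uniquely placed counts outside genes made up 21.7%, 30.1% and 21.8%. Alignments set aside as not unique came to 1.498, 1.017 and 0.956 for each uniquely placed count, so Bloodlinc_shCTL had the most of the 3 controls. Their part in the differences below, as in families of similar genes, was not tested. The 2 hnRNPU hairpin libraries stand apart from the other 6, with 2931627 and 2612916 counts in genes and 89.7% and 86.6% outside them, so values that rest on them are less secure. Levels below are CPM after TMM scaling over all 8 libraries, and differences are log2 ratios of these with a prior count of 2. Of all genes, 11041 had a mean of at least 1 CPM over the 3 controls and were compared.

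By mean level, red cell genes led the coding transcriptome of the 3 controls. Per kilobase of exon, the 6 most abundant coding genes by their mean were Hbb-bs, Hbb-bt, Hba-a1, Hba-a2, Alas2 and Car2, that is the adult beta and alpha globins, the heme enzyme and the main red cell carbonic anhydrase. The membrane gene Slc4a1 lay at rank 10 and Tfrc, the transferrin receptor gene, at 15 of the same order. Hbb-bs reached 41976 CPM per kb in Bloodlinc_shCTL, 14780 in Empty_vector and 36601 in hnRNPU_shCTL. The order by mean did not hold in Empty_vector. There the predicted gene Gm10800, at rank 7 by mean, had 5608 CPM per kb, above Hba-a1 at 2651. Alas2 and Car2 had 411 and 444 there, below the elongation factor gene Eef1a1 at 1196. Without length, protein-coding nuclear genes took 71.8%, 63.8% and 75.5% of gene counts in the same order, and the mitochondrial ribosomal RNAs 22.6%, 28.9% and 18.1%. The large subunit RNA mt-Rnr2 was the most abundant single gene by its mean.

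Counts were least concentrated in Empty_vector. Of the counts in nuclear coding genes, the 10 most abundant genes took 12.7% in Bloodlinc_shCTL, 6.77% in Empty_vector and 11.4% in hnRNPU_shCTL. The 100 most abundant took 30.4%, 19.2% and 27.3%. Coding genes of at least 1000 CPM numbered 100, 23 and 58. This cutoff is in TMM CPM, which summed over the compared genes to 1217090, 813190 and 877488, so it is no fixed share of counts. The 4 adult globins alone took 4.80%, 3.73% and 7.24%, though reads shared by near-identical globin copies can be missing from these counts.

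Bloodlinc_shCTL and Empty_vector lay farthest apart. Bloodlinc_shCTL was at least 2-fold above hnRNPU_shCTL in 1195 genes (10.8%) and below it in 1909 (17.3%). Empty_vector was above hnRNPU_shCTL in 1158 (10.5%) and below it in 1075 (9.74%). Empty_vector was above Bloodlinc_shCTL in 2860 (25.9%) and below it in 2195 (19.9%). In either direction these were 28.1%, 20.2% and 45.8% of genes, in the order of the 3 comparisons, which share libraries with each other. Past 4-fold, Bloodlinc_shCTL was above hnRNPU_shCTL in 1.6% and below it in 7.48%, together 9.08%. Empty_vector was that far above hnRNPU_shCTL in 1.82% and below it in 1.91%, together 3.73%. It was that far above Bloodlinc_shCTL in 11.7% and below it in 5.68%, together 17.4%. The largest gap thus lay between Empty_vector and Bloodlinc_shCTL at either limit. The median over all genes was 0.03, 0.03 and 0.04.

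How many genes lay above and how many below depended on the scaling. With upper quartile scaling the first comparison gave 2418 above and 1408 below, the second 828 and 1460, and the third 1924 and 3712. With library totals alone they gave 442 and 3214, 1508 and 924, and 4405 and 1085. TMM over the 3 controls alone moved the second comparison to 851 and 1453. The median of all genes shifted with these choices, to 0.37, -0.14 and -0.47 under upper quartile scaling and to -0.45, 0.14 and 0.63 under library totals. List values below are therefore read against the median of all genes. The difference between a list's median and that of all genes changed sign under any of 5 other scalings in 1 of 105 cases, the macrophage list for Empty_vector minus hnRNPU_shCTL, which ran from -0.03 to 0.36. A change of scaling shifts all genes nearly alike, so this difference could hardly move, and its stability supports no list. The list medians themselves changed sign in at least 1 of all settings tried in 31 of 105 cases.

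At a shared depth of 2612916 counts, reached by random thinning of all 8 libraries, 40.5% of 8649 genes differed at least 2-fold between Bloodlinc_shCTL and Empty_vector. The share was 24.8% between Bloodlinc_shCTL and hnRNPU_shCTL and 17.7% between Empty_vector and hnRNPU_shCTL. Within an arm, Empty_vector and the Bloodlinc vector library differed in 0.647% of these genes. Bloodlinc_shCTL differed from the libraries of Bloodlinc hairpins 1 and 2 in 8.15% and 18.5%. hnRNPU_shCTL differed from those of hnRNPU hairpins 1 and 2 in 36.5% and 11.6%. Of these 5 pairs of a control and a treated library of its arm, 3 lay below every pair of controls, and those with Bloodlinc hairpin 2 and hnRNPU hairpin 1 lay within their range.

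**Figure D1:**
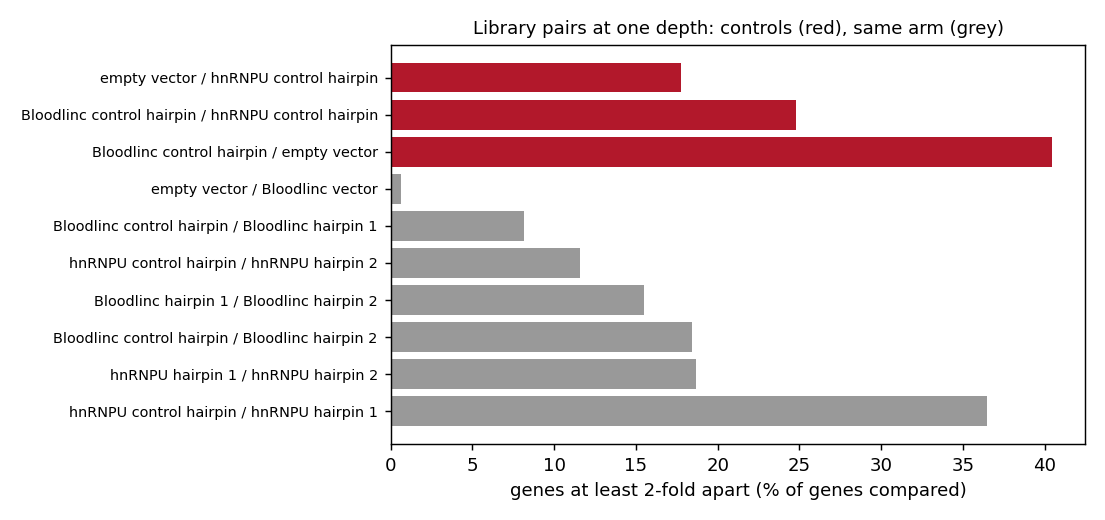
Share of genes at least 2-fold apart (horizontal axis, % of 8649 genes) for pairs of libraries at one depth, 1 bar a pair. The 3 pairs of controls (red) run from 17.7% to 40.5%, and the pairs within an arm (grey) from 0.647% to 36.5%.

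The genes of late erythroblasts were highest in Bloodlinc_shCTL, intermediate in hnRNPU_shCTL and lowest in Empty_vector. Of a list of 33 such genes, 29 had their highest level in Bloodlinc_shCTL and 32 their lowest in Empty_vector, against 40.5% and 35.5% of all genes. Their median difference was 0.61 for Bloodlinc_shCTL minus hnRNPU_shCTL, with 7 members at least 2-fold higher and 1 lower. It was -1.28 for Empty_vector minus hnRNPU_shCTL, with 1 higher and 21 lower, and -1.90 for Empty_vector minus Bloodlinc_shCTL, with 1 higher and 32 lower. In the same order, 10.8%, 10.5% and 25.9% of all genes were at least 2-fold higher, and 17.3%, 9.74% and 19.9% lower. A lower share of late cells and less of these RNAs per cell cannot be told apart in bulk libraries.

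Among them, Nt5c3, a pyrimidine nucleotidase gene whose product clears RNA breakdown products in maturing red cells, stood at 1483 CPM in Bloodlinc_shCTL, 152 in Empty_vector and 321 in hnRNPU_shCTL. Its difference was -3.28 between Empty_vector and Bloodlinc_shCTL (-3.32 to -3.24, the 95% counting interval). Tmcc2 had 6699, 2632 and 3798 CPM. Xpo7, a nuclear export factor of late erythroblasts, had 2195, 447 and 1315 CPM. The exception was St6galnac4, a sialyltransferase, at 2.10, 17.9 and 6.21 CPM, which ran the opposite way.

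**Figure D2:**
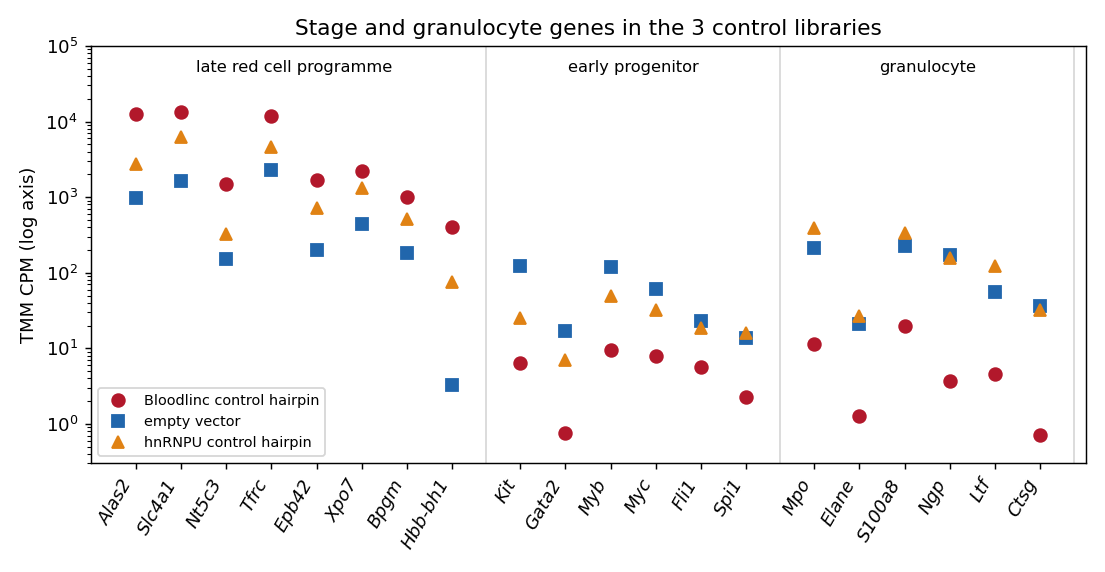
TMM CPM on a log axis of 8 red cell genes from several lists, 6 early progenitor genes and 6 granulocyte genes, 1 point a library. The 8 include the embryonic globin gene Hbb-bh1. St6galnac4 and Itga4, which ran against the late and early lists, are not drawn. Other red cell genes of a different order are also left out, such as Aqp1, highest in hnRNPU_shCTL. No adult globin is drawn, and 3 of these 4 were highest in hnRNPU_shCTL. Among the genes drawn, Bloodlinc_shCTL (circles) has the highest level of the red cell genes, as for Alas2 at 12516 CPM. It has the lowest of the early and granulocyte genes, as for Mpo at 11.3 CPM.

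Heme synthesis followed the same order more steeply. Alas2 stood at 12516 CPM in Bloodlinc_shCTL, 986 in Empty_vector and 2719 in hnRNPU_shCTL. Its difference was 2.20 (2.19 to 2.21) between the control hairpins and -3.67 (-3.68 to -3.65) between Empty_vector and Bloodlinc_shCTL. Of 16 genes, 14 were highest in Bloodlinc_shCTL and 15 lowest in Empty_vector, against 40.5% and 35.5% of all genes. The list medians were 0.73, -1.52 and -2.48 in the order of comparisons used above. Uros, encoding uroporphyrinogen III synthase, had 537, 63.0 and 232 CPM. Abcb10, a mitochondrial transporter that steadies the iron importer, had 2010, 256 and 1008 CPM. Alas1, the form of the first enzyme used outside red cells, went the other way, with 6.72, 21 and 26.3 CPM.

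Iron genes followed no single order. The uptake receptor gene Tfrc had 11994, 2252 and 4672 CPM in Bloodlinc_shCTL, Empty_vector and hnRNPU_shCTL, and so was highest in Bloodlinc_shCTL. Steap3, the ferrireductase gene that also serves uptake, had 34.2, 47.2 and 86.1 CPM and was lowest there. Of the ferritin genes, for storage, Fth1 had 384, 710 and 1416 CPM and Ftl1 1126, 566 and 1381, so both were highest in hnRNPU_shCTL but lowest in different libraries. The iron exporter gene Slc40a1 had 84.0, 23.5 and 54.9 CPM. Over 19 genes the medians were 0.15, -0.84 and -0.79.

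Membrane and skeleton genes were lower in Empty_vector than in both other controls in all 28 cases, against 35.5% of all genes. Their medians were -1.47 against hnRNPU_shCTL and -1.70 against Bloodlinc_shCTL. Between the control hairpins their median was 0.32. Of them, 8 were at least 2-fold higher in Bloodlinc_shCTL and 0 lower, beside 10.8% and 17.3% of all genes. Slc4a1, the anion exchanger gene, had 13369, 1655 and 6208 CPM, a difference of 1.11 (1.10 to 1.11) between the control hairpins. The glucose transporter gene Slc2a1 spread most, at 5657, 408 and 1319 CPM, followed by the fatty acid receptor gene Cd36 at 73.4, 5.69 and 14.0. The water channel gene Aqp1 was highest in hnRNPU_shCTL, at 46.9, 8.70 and 79.4 CPM.

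The adult globin genes differed in their order. Hbb-bs, an adult beta globin gene, had 32238 CPM in Bloodlinc_shCTL, 11351 in Empty_vector and 28109.5 in hnRNPU_shCTL. Its neighbour Hbb-bt had 6959, 4309 and 13136 CPM. The alpha globin gene Hba-a1 had 1528, 2153 and 3975 CPM, and Hba-a2 had 1269, 1583 and 2830. Thus Hbb-bs had the order of the late list, while the other 3 adult globins were highest in hnRNPU_shCTL. The list medians were -1.04, -1.10 and -0.19. The 4 genes form near-identical pairs, so reads shared by both copies of a pair can be missing from their counts.

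Of the 3 embryonic globins, which are made in the first wave of red cells of the yolk sac, the beta-like genes were highest in Bloodlinc_shCTL. Hbb-bh1 had 405 CPM there, 3.32 in Empty_vector and 75.7 in hnRNPU_shCTL, a difference of -6.90 (-7.19 to -6.68) between Empty_vector and Bloodlinc_shCTL. Hbb-y had 17.2, 1.72 and 2.65 CPM. The alpha-like gene Hba-x had 1.54, 0.257 and 2.11 CPM and was highest in hnRNPU_shCTL. Within the Bloodlinc arm, Hbb-bh1 also ranged from 41.4 CPM with hairpin 1 to 765 with hairpin 2. It was 3.94 CPM in the Bloodlinc vector library and 48.0 and 42.8 with hnRNPU hairpins 1 and 2, so the vector arm was low in both of its libraries.

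Erythroid transcription factor genes differed little between the control hairpins, with a median of 0.16 over 20 genes. Of them, 1 was at least 2-fold higher and 2 lower, beside 10.8% and 17.3% of all genes. In Empty_vector their medians were -0.97 against hnRNPU_shCTL and -1.34 against Bloodlinc_shCTL, with 10 and 11 genes at least 2-fold lower and 0 higher. Over all genes 9.74% and 19.9% were that much lower, and 10.5% and 25.9% higher. Gata1 had 334, 125 and 225 CPM, and Klf1, which activates adult beta globin, had 520, 180 and 442. Hemgn, a nuclear protein gene of maturing erythroblasts, had 1091, 184 and 911 CPM. Foxo3, a factor of late maturation, had 1421, 302 and 724. Cbfa2t3, a corepressor gene, was lowest in Bloodlinc_shCTL, with 5.69, 11 and 22.6 CPM.

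In the erythropoietin pathway the anti-apoptotic gene Bcl2l1 had 701, 151 and 370 CPM, and the kinase gene Pim1 had 891, 280 and 699. Both are known targets of STAT5. The feedback inhibitor Socs3 had 75.3, 11.7 and 60.8 CPM. Ptpn6, a phosphatase gene of many blood cells, had 4.36, 22.3 and 27.2 CPM. Over 17 genes the medians were 0.23, -0.55 and -1.03.

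**Figure D3:**
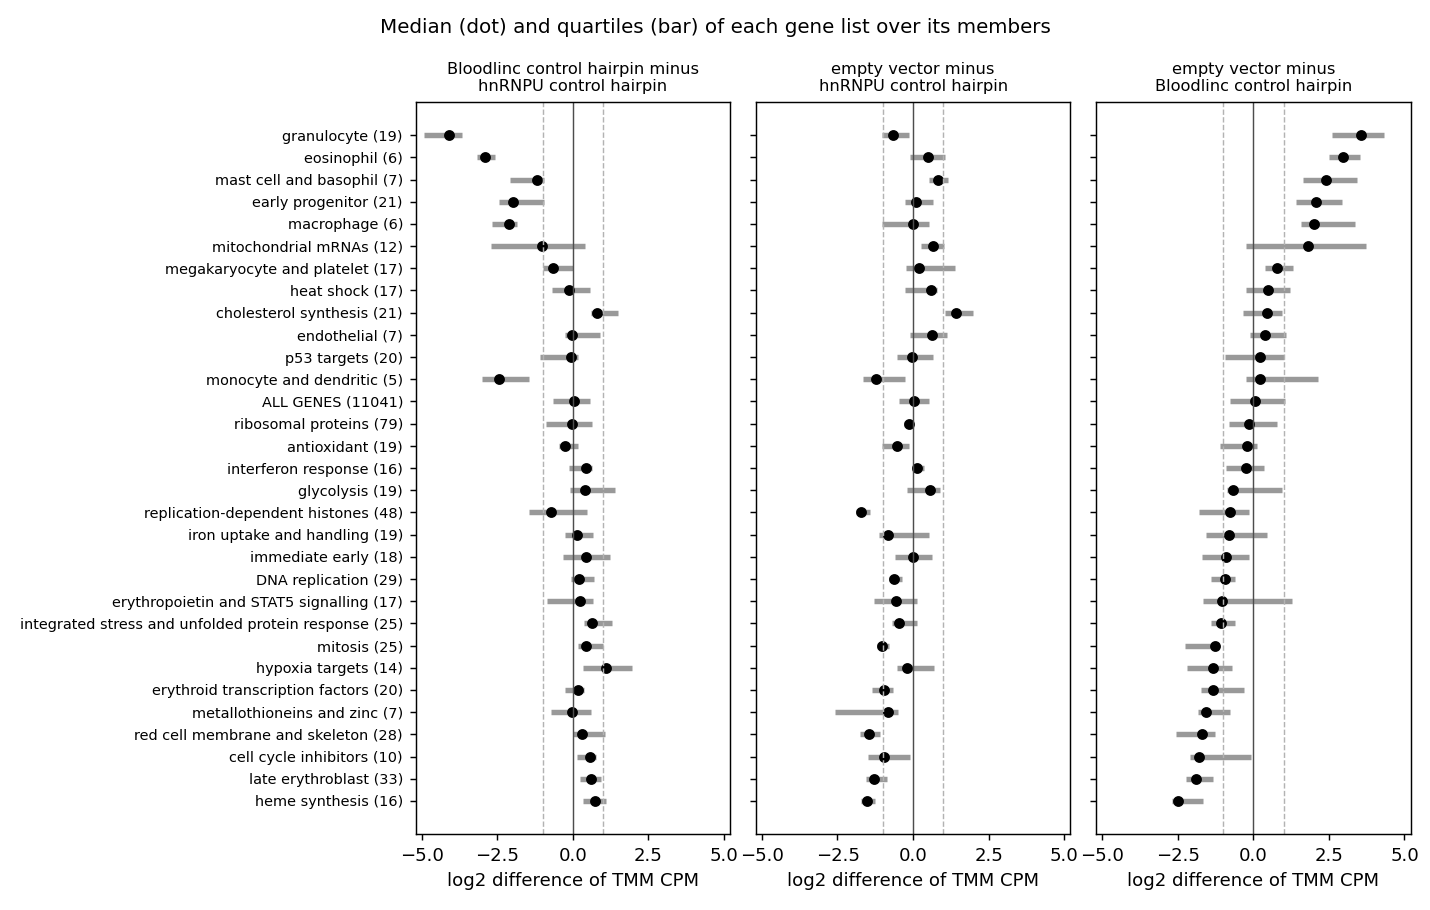
Median (dot) and quartiles (bar) of the log2 difference over the members of each gene list, number of members in brackets, in the 3 comparisons of controls. Dashed lines mark 2-fold. Lists with fewer than 5 members past the filter are not drawn. In the right panel heme synthesis lies lowest, at -2.48, and the granulocyte list highest, at 3.56, beside 0.04 for all genes.

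Early progenitor genes stood lowest in Bloodlinc_shCTL. Of 22 listed, 21 passed the filter, and 19 of these were lowest in Bloodlinc_shCTL, against 40.6% of all genes. Their median was -1.97 for Bloodlinc_shCTL minus hnRNPU_shCTL, with 1 member at least 2-fold higher and 15 lower. It was 2.06 for Empty_vector minus Bloodlinc_shCTL, with 17 higher and 1 lower. Between Empty_vector and hnRNPU_shCTL it was 0.11, with 3 higher and 0 lower, close to the 0.03 of all genes. In the order of these comparisons, 10.8%, 25.9% and 10.5% of all genes were at least 2-fold higher. Lower by that much were 17.3%, 19.9% and 9.74%.

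The receptor gene Kit had 6.31 CPM in Bloodlinc_shCTL, 123 in Empty_vector and 24.8 in hnRNPU_shCTL. Its difference was 4.27 (4.02 to 4.55) between Empty_vector and Bloodlinc_shCTL and 2.30 (2.20 to 2.41) between Empty_vector and hnRNPU_shCTL. Gata2, which precedes Gata1 in progenitors, had 0.769, 16.7 and 6.94 CPM. Myb and Myc, which keep progenitors dividing, had 9.64, 118 and 48.7 CPM and 7.89, 60.1 and 31.9 CPM. For these 4 genes Empty_vector was highest and hnRNPU_shCTL lay between. The integrin gene Itga4 ran against the list, with 1424, 300 and 556 CPM, and Lyl1 differed less, with 99.1, 64.0 and 111.

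Other listed genes were as high in hnRNPU_shCTL as in Empty_vector. Erg had 0.205, 4.04 and 4.06 CPM, Spi1 2.26, 13.8 and 16.1, Cebpa 5.43, 12.1 and 16, and Ptprc 2.97, 24.6 and 28.0. Spi1, Cebpa and Ptprc are also genes of granulocyte and macrophage precursors. The granulocyte list moved with them, at a summed 135, 1247 and 1873 CPM, and its part in these values was not tested.

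Genes of dividing cells were lower in Empty_vector than in the other controls. All 25 mitosis genes were lowest there, against 35.5% of all genes. Their medians were -1.03 against hnRNPU_shCTL and -1.28 against Bloodlinc_shCTL. Of them, 13 and 20 were at least 2-fold lower, beside 9.74% and 19.9% of all genes. Mki67, the proliferation marker gene, had 4032 CPM in Bloodlinc_shCTL, 1666 in Empty_vector and 4065 in hnRNPU_shCTL. Kif11, the spindle motor gene, had 1240, 213 and 368 CPM, Ccnb1, encoding cyclin B1, 606, 113 and 232, and Racgap1, a cytokinesis gene, 349, 54.6 and 141. Of 29 DNA replication genes, 27 were lowest in Empty_vector, with medians of -0.62 and -0.93. Rrm2, which supplies deoxynucleotides, had 1533, 311 and 1181 CPM, and Pcna, the sliding clamp gene, 1106, 295 and 474. Between the control hairpins the mitosis and replication medians were 0.45 and 0.22, against 0.03 for all genes.

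Inhibitors of the cell cycle were also low in Empty_vector. Cdkn2c, encoding p18, had 106, 14.6 and 75.9 CPM, and Rb1 had 493, 103 and 314. Over the 10 genes that passed the filter the medians were 0.56, -0.98 and -1.80. In Empty_vector, 4 were at least 2-fold lower than in hnRNPU_shCTL and 6 than in Bloodlinc_shCTL, beside 9.74% and 19.9% of all genes. At least 2-fold higher were 0 in both, beside 10.5% and 25.9%.

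Replication-dependent histone genes, whose transcripts lack poly(A) tails and peak in S phase, were highest in hnRNPU_shCTL. Their summed level was 8622, 5606 and 17145 CPM in Bloodlinc_shCTL, Empty_vector and hnRNPU_shCTL. Of 54 genes, 48 passed the filter and 33 of these were highest in hnRNPU_shCTL, against 20.6% of all genes. Against hnRNPU_shCTL, 44 were at least 2-fold lower in Empty_vector and 0 higher, with a median of -1.71. Over all genes 9.74% were that much lower and 10.5% higher. The linker histone gene Hist1h1c had 328, 615 and 2277 CPM, and Hist1h2bf had 106, 91.7 and 647. The summed level was 4483 and 6319 CPM with hnRNPU hairpins 1 and 2, and 3887 and 3838 with the Bloodlinc hairpins, so each control hairpin library lay above the hairpin libraries of its arm.

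Cholesterol synthesis was the list most clearly low in hnRNPU_shCTL. Of 21 genes that passed the filter, 18 were lowest there, against 23.9% of all genes, and the medians of Bloodlinc_shCTL and Empty_vector against it were 0.80 and 1.42. At least 2-fold higher were 9 genes in the first and 16 in the second, with 1 and 0 lower. Over all genes 10.8% and 10.5% were that much higher, and 17.3% and 9.74% lower. Msmo1, a sterol oxidase gene, had 225, 260 and 67.5 CPM, Nsdhl, in the same step, 60.8, 61.8 and 17.4, and Fdps, which makes farnesyl diphosphate, 392, 167 and 62.7. Dhcr7, the last enzyme of a branch, was highest in Empty_vector instead, with 1.54, 35.9 and 4.65 CPM. The summed level was 3103 and 3265 CPM with the Bloodlinc hairpins, 2706 in the Bloodlinc vector library and 927 and 914 with the hnRNPU hairpins, so all 3 hnRNPU libraries lay below the other 5.

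Hypoxia targets were highest in Bloodlinc_shCTL. Of 14 genes that passed the filter, 9 were at least 2-fold higher there than in hnRNPU_shCTL and 0 lower, with a median of 1.09. Over all genes the shares were 10.8% and 17.3%. Bnip3, a mitophagy receptor gene, had 156, 28.7 and 16 CPM, and Ankrd37 had 4.82, 0.772 and 0.364. Slc2a1, named above, belongs to this list as well as to the membrane list. Genes of the integrated stress and unfolded protein response had medians of 0.63, -0.46 and -1.06 over 25 genes. Their central factor gene Atf4 had 1064, 322 and 398 CPM, the asparagine synthetase gene Asns 1390, 369 and 460, and Sesn2, which restrains growth signalling, 485, 103 and 148. Most of these genes were thus highest in Bloodlinc_shCTL, with 19 of 25, against 40.5% of all genes.

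Glycolysis genes had medians of 0.41, 0.58 and -0.66 over 19 genes. Apart from Slc2a1, Bpgm, which makes the red cell effector 2,3-bisphosphoglycerate, had 1009, 181 and 510 CPM, while Eno1, encoding enolase, had 34.1, 134 and 74.7. Of the antioxidant genes, Gpx4 had 980, 118 and 242 CPM, Prdx2, an abundant red cell peroxidase gene, 2616, 486 and 1443, and Gpx1 4264, 794 and 2418. The whole list of 19 had medians of -0.27, -0.54 and -0.20.

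Single stress genes set each library apart. The immediate early genes Fosb and Fos were highest in Bloodlinc_shCTL, with 22.7, 1.31 and 0.728 CPM and with 33.5, 8.32 and 4.94 CPM. The heat shock genes Hspa1a and Hspa1b were highest in hnRNPU_shCTL, with 0.666, 0.154 and 6.40 CPM and with 0.615, 0.515 and 8.16 CPM. These 2 are near-identical copies, so reads shared by both can be missing from their counts. The metal-binding genes Mt1 and Mt2 were also highest there, with 781, 178 and 1399 CPM and with 389, 155 and 1440 CPM. The zinc importer gene Slc39a10 was highest in Empty_vector, with 9.53, 61.8 and 6.71 CPM. Over whole lists the medians were 0.43, -0.01 and -0.90 for immediate early genes. They were -0.02, -0.83 and -1.56 for metallothioneins and zinc genes, with 5 of 7 at least 2-fold lower in Empty_vector than in Bloodlinc_shCTL. Over all genes 19.9% were that much lower. Medians for heat shock were -0.14, 0.60 and 0.48, for p53 targets -0.05, -0.03 and 0.23, and for the 16 interferon genes that passed the filter 0.43, 0.12 and -0.25. The antiviral gene Rsad2 had 98.9, 16.5 and 63.4 CPM and Ifit1 5.79, 2.09 and 0.962.

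Granulocyte genes were present in Empty_vector and hnRNPU_shCTL and low in Bloodlinc_shCTL. The 21 listed genes summed to 135 CPM in Bloodlinc_shCTL, 1247 in Empty_vector and 1873 in hnRNPU_shCTL. All 19 that passed the filter were lowest in Bloodlinc_shCTL, against 40.6% of all genes. The median was -4.10 against hnRNPU_shCTL (18 at least 2-fold lower, 0 higher, beside 17.3% and 10.8% of all genes). It was 3.56 for Empty_vector minus Bloodlinc_shCTL (18 higher, 0 lower, beside 25.9% and 19.9% of all genes). Between Empty_vector and hnRNPU_shCTL the median was -0.65 (5 at least 2-fold lower, 0 higher, beside 9.74% and 10.5% of all genes). Among lists with at least 5 members past the filter, these medians lay farthest from 0 both between the control hairpins and between Empty_vector and Bloodlinc_shCTL.

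Genes of early granules and of later ones shared this order of Bloodlinc_shCTL below the others. Mpo, encoding the myeloperoxidase of early granules, had 11.3, 214 and 386 CPM, a difference of -5.09 (-5.30 to -4.90) between the control hairpins. The elastase gene Elane had 1.28, 21.2 and 26.8 CPM, and Ctsg, encoding cathepsin G, 0.718, 36.9 and 31.8. The later gene Ngp had 3.74, 171 and 156 CPM, and the calcium-binding genes S100a8 and S100a9 had 19.7, 224 and 338 CPM and 51.1, 275 and 432 CPM. Ly6g, a marker of mature neutrophils, had 0 counts in Bloodlinc_shCTL and 1 count in each other control, and Mmp9, of their latest granules, had 0, 0.592 and 2.55 CPM. The same order by arm was seen in the other 5 libraries, with sums of 60.6 and 72.8 CPM with the Bloodlinc hairpins, 1170 in the Bloodlinc vector library, and 10018 and 3925 with hnRNPU hairpins 1 and 2.

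**Figure D4:**
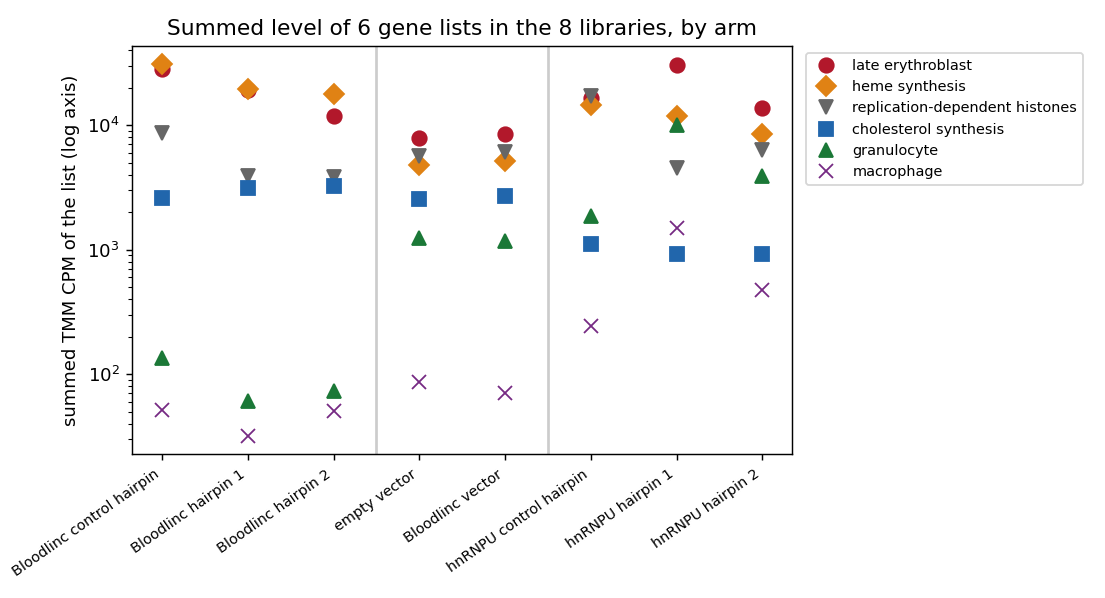
Summed TMM CPM (log axis) of 6 gene lists in each of the 8 libraries, with vertical lines between the 3 arms. The granulocyte list (triangles) lies at 135 CPM or below in the 3 libraries of the Bloodlinc hairpin arm and at 1170 CPM or above in the other 5.

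Macrophage genes were scarce. The 20 listed genes summed to 51.5, 86.7 and 242 CPM, of which Lyz2, the lysozyme gene also active in granulocytes, gave 46.3, 50.6 and 214. The receptor gene Csf1r had 1.69, 5.15 and 12.4 CPM and Adgre1, encoding F4/80, 1.08, 3.5 and 4.6. Cd5l, Timd4 and Vsig4, genes of resident macrophages, had 6, 4 and 1 counts in Empty_vector and 0 counts in Bloodlinc_shCTL and hnRNPU_shCTL. Mrc1, the mannose receptor gene, had 354 counts in Empty_vector, 1 in Bloodlinc_shCTL and 2 in hnRNPU_shCTL. Its level was 9.11 CPM in Empty_vector and 5.93 CPM in the Bloodlinc vector library, and at most 0.382 CPM in the other 6.

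Mast cell, eosinophil and megakaryocyte genes were likewise lowest in Bloodlinc_shCTL by their sums. The mast cell and basophil list summed to 28.5, 134 and 75.1 CPM, with 4.31, 53.3 and 29.7 CPM of the histidine decarboxylase gene Hdc and 5.54, 19.6 and 10.7 of the carboxypeptidase gene Cpa3. All 7 members that passed the filter were highest in Empty_vector, against 38.8% of all genes. The eosinophil list summed to 7.59, 48.4 and 45.9 CPM, mostly from Prg2, the major basic protein gene, at 3.43, 31.2 and 30.4. The megakaryocyte and platelet list summed to 150, 232 and 219 CPM, with 3.79, 15.6 and 7.64 CPM of the platelet chemokine gene Pf4. Kit and Gata2, among the early genes above, are also active in mast cells, and the part of such cells in their levels was not tested.

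Lymphoid genes were low in all 3 controls, endothelial genes differed little in sum, and liver cell genes were seen mainly in Empty_vector. The B cell list summed to 1.69, 3.58 and 1.95 CPM, with 0 of 12 members past the filter, and the T and NK cell list to 7.13, 5.46 and 4.37. The endothelial list summed to 19.4, 26.5 and 19.5 CPM, with 1, 3 and 0 counts of the defining gene Cdh5. The mesenchymal list summed to 76.0, 55.8 and 66.6 CPM, of which Reln, encoding reelin, gave 74.3, 39.1 and 59.2. Of the 20 liver cell genes, 15 were at 0 in Bloodlinc_shCTL, 0 in Empty_vector and 11 in hnRNPU_shCTL, and they summed to 0.615, 19.1 and 0.962 CPM. Afp, the fetal liver protein gene, had 3, 253 and 4 counts, and Alb, encoding albumin, 4, 158 and 0. Both were also seen in the Bloodlinc vector library, at 5.70 and 3.05 CPM. Counts in Empty_vector touched other unrelated genes widely too. Of 879 olfactory receptor genes, 352 had a count there, against 18 in Bloodlinc_shCTL and 51 in hnRNPU_shCTL. Whether the liver cell counts came from liver cells was not tested.

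Genes that set 1 control apart from both others were frequent for Bloodlinc_shCTL and Empty_vector and rare for hnRNPU_shCTL. Among 7978 named coding genes with a mean of at least 5 CPM, Bloodlinc_shCTL was at least 2-fold above both others in 646 (8.10%) and below both in 769 (9.64%). For Empty_vector these were 396 (4.96%) and 578 (7.24%), and for hnRNPU_shCTL 68 (0.852%) and 39 (0.489%).

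Farthest above in Bloodlinc_shCTL, after histone genes and Fosb, stood the fatty acid binding protein gene Fabp5, with 815, 64.4 and 39.1 CPM, and Tspo, a mitochondrial outer membrane gene, with 481, 15.9 and 67.9. Farthest below were granulocyte genes, led by Stfa2 with 2 counts and 0.103 CPM against 8.99 and 9.83 CPM, then Ngp and Ctsg. Farthest above in Empty_vector was Elovl6, which lengthens fatty acids, with 9.28, 121 and 10.8 CPM. With it stood Scd1, the fatty acid desaturase gene, with 10.1, 73.5 and 3.98 CPM, Dhcr7, and Gpnmb, a lysosomal glycoprotein gene, with 0.718, 25 and 2.31 CPM. Elovl6 was 117 CPM in the Bloodlinc vector library and at most 29.6 CPM in the other 6.

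Farthest below in Empty_vector were Apol11b, with 24.6, 0.206 and 21.4 CPM, Fn3k, a protein repair kinase gene of red cells, with 51.3, 1.34 and 35.1, and Hbb-bh1. Snx22 had 94.2, 1.75 and 37.5 CPM. For Apol11b the difference from hnRNPU_shCTL was -6.32 (-7.91 to -5.71). Farthest above in hnRNPU_shCTL were Hist1h2bf, the cytochrome oxidase subunit gene Cox6b2 with 9.89, 9.96 and 56.1 CPM, and Hist2h3b with 1.85, 33.5 and 181. Farthest below were the receptor gene Bmpr1a, with 11.9, 19.4 and 3.12 CPM, then Nsdhl and Msmo1. Lars2, a mitochondrial leucyl-tRNA synthetase gene, had 22.2, 47.2 and 8.22 CPM.

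Ribosomal protein genes, whose products are used in fixed proportion, scattered in both comparisons with Bloodlinc_shCTL and little in the other. Over 79 ribosomal protein genes the medians were -0.03, -0.15 and -0.15, but the SD over genes was 1.19 between the control hairpins and 1.23 between Empty_vector and Bloodlinc_shCTL, against 0.24 between Empty_vector and hnRNPU_shCTL. Over all genes the SD was 1.27, 1.62 and 0.91 in the same order, so these genes scattered no more than genes in general. Rps16 had 7.64, 132 and 179 CPM, whereas Rpl37a had 868, 104 and 125. Rpl4 had 1511, 1577 and 1495 CPM. Of the 79, 9 were at least 2-fold higher and 17 lower between the control hairpins, beside 10.8% and 17.3% of all genes, and 0 either way between Empty_vector and hnRNPU_shCTL, beside 10.5% and 9.74%.

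Mitochondrial mRNAs, cut from shared precursors, also scattered most in the comparisons with Bloodlinc_shCTL. The SD over 12 genes was 2.44 between the control hairpins and 2.92 between Empty_vector and Bloodlinc_shCTL. Between Empty_vector and hnRNPU_shCTL it was 0.71. Over all genes the SD was 1.27, 1.62 and 0.91 in this order. Unlike ribosomal protein genes, they thus scattered more than genes in general in both comparisons with Bloodlinc_shCTL. The cytochrome b gene mt-Cytb had 55.9, 1650 and 1053 CPM, and mt-Nd2, of complex I, 34.3, 895 and 436. The cytochrome oxidase gene mt-Co2 ran the other way with 3117, 1521 and 1246 CPM, and mt-Co3 was close to level with 3249, 3029 and 2961. These values belonged to the arm: mt-Cytb was 94.0 and 64.5 CPM with the Bloodlinc hairpins, 1389 in the Bloodlinc vector library and 1258 and 1179 with the hnRNPU hairpins. The same held for Rpl37a, at 735 and 598 CPM with the Bloodlinc hairpins and at most 125 in the 5 libraries of the other arms.

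**Figure D5:**
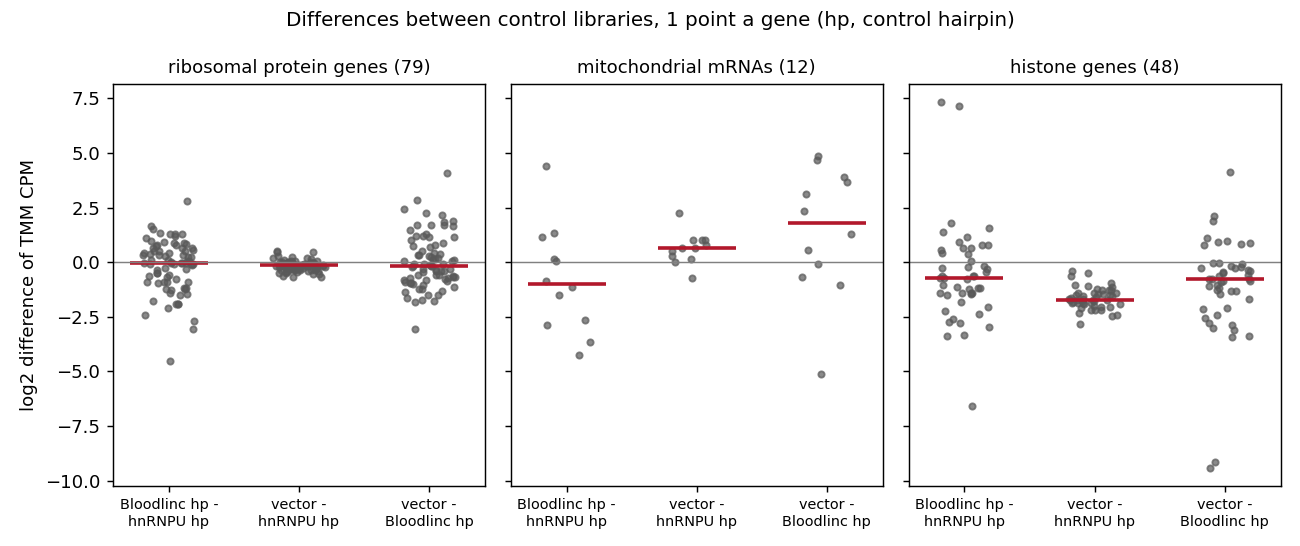
Log2 differences of TMM CPM between controls, 1 point a gene and a red bar at the median, for ribosomal protein, mitochondrial mRNA and histone genes. Ribosomal protein genes spread with an SD of 1.19 and 1.23 in the comparisons with Bloodlinc_shCTL and of 0.24 in the other.

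Among histone genes, Hist1h4m and Hist1h4n stood far above in Bloodlinc_shCTL, with 151, 0.206 and 1.014 CPM and with 111, 0.103 and 0.624 CPM. Reads shared by near-identical histone copies can be missing from the counts, so single histone genes are uncertain. Both were between 36.4 and 81.9 CPM with the Bloodlinc hairpins and at most 1.15 CPM in the 5 libraries of the other arms. Small nucleolar RNAs took 1.46% of gene counts in Bloodlinc_shCTL, 0.0947% in Empty_vector and 0.181% in hnRNPU_shCTL. The U3 RNA gene Rnu3a had 14164, 137 and 332 CPM. The 7SK RNA gene Rn7sk ran the opposite way with 4091, 7875 and 9125 CPM, as did Rpph1, the RNase P RNA gene, with 1337, 5115 and 6533. Which of the differences named in earlier paragraphs share in this gene-by-gene scatter was not tested. Over all genes the log2 differences had Spearman correlations with exon length of 0.02, 0.05 and 0.02, a description across genes.

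The targets of the study differed between its own controls. Bloodlinc had 87, 52 and 166 counts, which were 4.46, 1.34 and 4.32 CPM, in Bloodlinc_shCTL, Empty_vector and hnRNPU_shCTL. It was thus close in the control hairpins and lower in Empty_vector, with a difference from hnRNPU_shCTL of -1.64 (-2.17 to -1.23). Hnrnpu had 290, 717 and 583 CPM. Bloodlinc_shCTL therefore lay below hnRNPU_shCTL by a log2 difference of -1.01 (-1.05 to -0.97) in a gene that neither control hairpin is labelled to target.

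Differences between controls recurred between the other libraries of the same arms, which share no library with them but carry hairpins or the Bloodlinc vector. Of 925 genes at least 2-fold higher in Bloodlinc_shCTL than in hnRNPU_shCTL, at a mean of at least 5 CPM, 662 (71.6%) were also higher in the mean of the 2 Bloodlinc hairpins than in that of the 2 hnRNPU hairpins. They were 29.0% of the 2281 genes higher there, and 12 lay past 2-fold the opposite way. Of the 993 lower, 641 recurred (64.6%, and 64.4% of the other list). For Empty_vector minus Bloodlinc_shCTL, set beside the Bloodlinc vector minus the Bloodlinc hairpins, 1158 of 1574 higher genes recurred (73.6%, and 84.3% of the other list) and 1186 of 1815 lower (65.3% and 83.1%). For Empty_vector minus hnRNPU_shCTL, 387 of 566 higher genes recurred (68.4% and 22.1%) and 309 of 808 lower (38.2% and 35.2%). Of these 808, 20 lay the opposite way. The comparison of Empty_vector with Bloodlinc_shCTL is the one that does not rest on the 2 hnRNPU hairpin libraries, which stand apart in depth and in counts outside genes. Over the 8419 genes compared, the other libraries gave 27.1% higher and 11.8% lower in the first comparison, 16.3% and 17.0% in the second named and 20.8% and 10.4% in the last.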

How the data were processed

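Per the labels' protocols, strand-specific libraries were made from total RNA after ribosomal RNA was depleted, and a HiSeq2000 read them. The submitters' processing notes name TopHat2 2.0.11, HTSeq and the build mm9. HTSeq's version, annotation and strand setting are not given in the sources used here. The authors deposited raw counts for each library, with 37620 gene IDs and 5 summary entries, which were kept out of all totals and comparisons. GENCODE M21 (GRCm38) supplied symbols for 87.4% of the IDs, exon lengths and positions, none of which was used to count reads.

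Counts were scaled with TMM over all 8 libraries (edgeR 4.0.16, R 4.3.3). Genes with a mean of at least 1 CPM over the 3 controls were compared, with a prior count of 2. A gene is called at 2-fold. With 1 library a group no test was made, and 95% exact conditional binomial intervals cover counting error only, since reads carry no molecular identifiers. Thinning used a fixed seed. The procedure was tested on simulated data with known folds. That simulation raised a small set of genes in 1 library over a shared profile, with counting noise only. It cannot check the scaling where many genes differ, as they do between these controls.

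The members, the gene lists and the rule for naming genes were chosen with earlier results of these data known. The rule named the study's targets, the 20 most abundant genes by CPM and the 20 most abundant coding genes by CPM per kb, in each library the 8 coding genes (mean of at least 5 CPM) farthest above and below both other controls, and from each list the 2 members most abundant per kb and the 3 of widest range. For other cell types the first 5 on the list could also be named. Other members named (Xpo7, Bpgm, Spi1, Cebpa, Ptprc, Myb, Myc, Rb1, mt-Co2, Mmp9, Ly6g, Cd5l, Timd4, Vsig4 and Cdh5 among them) were chosen after their values were seen. Alternatives were DESeq2 1.42.0 size factors, upper quartile scaling, library totals, TMM over the 3 controls, removal of the 20 most abundant genes or of mitochondrial ribosomal RNA, other prior counts, other filters, coding genes only, thinning, a 4-fold limit and intervals wholly past the limit. TMM without the 2 hnRNPU hairpin libraries was added after the data were seen.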

Additional observations from a re-analysis of the deposited data

How the results depend on the processing

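No paired analysis was possible because each control is 1 library, and replicate numbers 1 and 2 name different hairpins. Upper quartile scaling moved the late erythroblast median to 0.95 between the control hairpins and to -2.41 for Empty_vector minus Bloodlinc_shCTL, and library totals to 0.14 and -1.33. In the same settings, genes higher in Bloodlinc_shCTL than in hnRNPU_shCTL came to 2418 and 442, and library totals gave 3214 lower. Genes lower in Empty_vector than in Bloodlinc_shCTL came to 3712 and 1085, and library totals gave 4405 higher. With no filter on low counts there were 2118 genes higher and 4488 lower in Bloodlinc_shCTL than in hnRNPU_shCTL, 5717 higher and 1946 lower in Empty_vector than in hnRNPU_shCTL, and 9060 higher in Empty_vector than in Bloodlinc_shCTL. With a mean of at least 5 CPM the first comparison gave 993 lower, the second 566 higher and the third 1574 higher, fewer genes being tested. A 4-fold limit gave 177 higher and 826 lower, 201 and 211, and 1296 and 627. Where the whole counting interval had to lie past 2-fold, 692 genes were higher in Empty_vector than in hnRNPU_shCTL. For the scaling settings the cause was not tested. The monocyte and dendritic median for Empty_vector minus hnRNPU_shCTL turned from -1.23 over 5 genes to 0.57 with no filter. Relative to the median of all genes in the same setting, 1 of 105 list medians changed sign under 5 other scalings, a comparison added after the data were seen. Scaling shifts all genes nearly alike, so that count was nearly fixed in advance. The list medians themselves changed sign in at least 1 setting in 31 of 105 cases, and in 1 of the 41 at or past 2-fold. Of 112 differences past 2-fold among the genes ranked farthest above or below both other controls, 0 changed sign. These genes were picked for large differences, so a change of sign was unlikely. Genes named by other rules were not checked in this way. By length, 13 of the 20 most abundant coding genes stayed when length was left out. A fold against a library with 0 to 3 counts was not given.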

Other observations

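Genes that red cells are not known to use were touched by counts most widely in Empty_vector. A count was found for 26679 genes there, against 16790 in Bloodlinc_shCTL and 20470 in hnRNPU_shCTL, and for 25449, 16790 and 19527 after thinning to the shallowest control. Genes with only 1 to 3 counts numbered 8101, 3531 and 4686. Of 879 olfactory receptor genes, 352 had a count in Empty_vector, 18 in Bloodlinc_shCTL and 51 in hnRNPU_shCTL, with 286 in the Bloodlinc vector library. Of 193 vomeronasal receptor genes, 113, 6 and 10 had one, and of 53 keratin genes 42, 6 and 10. In Empty_vector the median count of a detected olfactory receptor gene was 1 and the highest 632, and those of vomeronasal receptor genes were 2 and 671. Afp, of the liver cell list, had 253 counts there.

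The predicted gene Gm10800 had 143756 counts in Empty_vector, 0 in Bloodlinc_shCTL and 1426 in hnRNPU_shCTL. Gm23935, annotated as a microRNA gene, had 9223, 4 and 1039 counts. Among small nucleolar RNAs, Snora73a had 308 CPM in Bloodlinc_shCTL, 0.412 in Empty_vector and 0.520 in hnRNPU_shCTL, whereas its neighbour Snora73b had 29.5, 72.2 and 298 CPM. Of 83 small nucleolar RNAs that passed the filter, 48 were highest in Bloodlinc_shCTL, 16 in Empty_vector and 19 in hnRNPU_shCTL. Over all genes these shares were 40.5%, 38.8% and 20.6%. The long noncoding RNA Malat1 had 14532, 9288 and 9732 CPM.

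All 3 controls held RNA of both sexes. Xist, made from the inactive X of female cells, had 580 CPM in Bloodlinc_shCTL, 114 in Empty_vector and 282 in hnRNPU_shCTL. The Y-linked genes Eif2s3y and Ddx3y had 113, 58.1 and 48.2 CPM and 90.02, 66.9 and 55.4 CPM, while Kdm5d had 11.9, 16.9 and 12 and Uty 21.7, 31.8 and 18.2. Xist and Eif2s3y were both highest in Bloodlinc_shCTL.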
